A study of Canis lupus familiaris with 22 samples.

Results

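Complement is a set of proteins that tag microbes and damaged cells, call in leukocytes and puncture membranes. In this study, 10 of its genes were sought in the blood of dogs with canine atopic dermatitis (cAD): the starter chains *C1QA* and *C1QB*, the central component *C3*, the alternative pathway activators *CFD* and *CFP*, the receptors *C3AR1* and *C5AR1*, and the protectors of host cells *CD59*, *CD55* and *CD46*. The probes were chosen by name alone, as the array spots whose gene name equals one of these symbols. Of the 10 genes, 8 were matched, by 14 probes out of the 43603 different probes of the array. *C3* had 5 probes, *CD59* had 3, and each of the other 6 genes had 1. For *CD55* and *CD46* no probe was chosen by this rule.

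Blood had been drawn from adult dogs of several breeds and both sexes in 3 groups. These were 8 healthy dogs (ctrl), which were donors of a veterinary blood bank, 7 privately owned cAD patients before allergen-specific immunotherapy (ASIT), called 0, and the same 7 patients after 6 months of ASIT, called 6 months. ASIT was given as increasing subcutaneous doses of the extracts to which each dog had reacted. Each of the 22 arrays carried a dog's RNA in Cy5, and in Cy3 the same reference each time, pooled from other healthy dogs. The labels call the material whole blood, while the methods name peripheral blood nuclear cells. Each value below is a log2 ratio of dog to reference, so 0 means the level of the reference and 1 means a doubling.

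Complement is started in several ways. C1q, built of 3 kinds of chain, binds antibody and dying cells and starts the classical pathway, and it is made chiefly by macrophages and related cells. *C3* is cut in every pathway and leaves fragments on the target. Factor D (*CFD*) and properdin (*CFP*) drive and steady the alternative pathway, and both are also released by leukocytes. The small fragments C3a and C5a signal through *C3AR1* and *C5AR1* on myeloid cells, and *CD59*, held in the membrane by a lipid anchor, blocks the final pore on host cells. The liver makes most of the complement protein of plasma, so RNA from blood reports what the blood cells make. In bulk blood, fewer cells of a type and less RNA per cell cannot be told apart.

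The probes that carry the results below are 60 bases long, and they are shown for the pairs of genes that are compared with each other and for *C3AR1*. They are given 5′ to 3′ as on the array. The capitals mark the 11 bases that the probes of *C1QA* and *C1QB* have in common, the longest run shared by this pair.
C1QA: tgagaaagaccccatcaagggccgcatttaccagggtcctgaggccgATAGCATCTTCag
C1QB: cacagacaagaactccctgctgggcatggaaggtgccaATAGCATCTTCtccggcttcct
CFD: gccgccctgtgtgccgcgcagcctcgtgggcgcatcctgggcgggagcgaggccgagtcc
CFP: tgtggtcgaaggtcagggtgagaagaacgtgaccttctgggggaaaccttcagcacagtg
C3AR1: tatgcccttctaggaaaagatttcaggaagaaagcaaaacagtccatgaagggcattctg

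The files place them on canFam3.1, the dog genome build of the array, and they were not assigned to exons here, for want of its annotation. *C1QA* (chr2:76668327-76668386) and *C1QB* (chr2:76650611-76650670) lay on the same strand of the same chromosome. *C3AR1* was at chr27:37433885-37433944 and *CFP* at chrX:41246028-41246087. The 60 bases of *CFD* spread over 315 bases of chromosome 20, from 57786576 to 57786890, so this probe crosses a gap in the genome, and 78.3% of its bases were G or C, against 41.7% to 60% in the other 13 probes. Of the 5 probes of *C3*, 4 also spanned more than their own length, from 165 to 340 bases. The main probe of *CD59*, the one with the highest mean Cy5 signal, was at chr18:33998887-33998946.

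Signal strength differed between genes and between groups. Cy5 was well above background on all 22 arrays for *C5AR1*, *CFD*, *CFP*, *C1QA* and probes 1 and 2 of *CD59*. The main probe of *C3* reached that on 20 arrays, *C1QB* on 18 and *C3AR1* on 14. All 8 control arrays measured these 3 probes, whereas of the 7 arrays before ASIT *C3AR1* was measured on 4 and *C1QB* on 5. Probes 2 to 5 of *C3* and probe 3 of *CD59* were above background on 9 to 16 arrays. Over the whole array, the share of probes with Cy5 above background lay at a median of 87.8% in ctrl, 62.5% before ASIT and 61.6% after it. The ctrl arrays lay on slides and in a scan of their own, so in both comparisons with ctrl the group and the slide or scan cannot be told apart. No spot of the 14 probes was saturated.

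Most marker lists of blood cell types were covered by tested probes. These were present for 10 of 13 neutrophil marker genes, 10 of 10 of monocytes, 5 of 6 of macrophages and 9 of 10 of T cells. They were also present for 7 of 8 genes of B cells, 7 of 9 of erythroid cells and 6 of 8 of platelets. Coverage was lower for cytotoxic and NK cells (4 of 8) and eosinophils (2 of 4), and a hepatocyte list had 5 of 6. In any comparison, 0 of the probes of these lists were called. Of all tested probes, 47.6% had a positive difference before ASIT against ctrl, and 11.7% an unadjusted p under 0.05. After ASIT against ctrl these shares were 43.6% and 7.2%, and between the time points 48.6% and 5.96%. In 0 vs. ctrl, however, 8 of 8 platelet probes had a negative difference (median -0.54, 3 of them with an unadjusted p under 0.05) and 10 of 10 erythroid probes a positive one (median 0.49, 0 of them with such a p). In 6 months vs. ctrl 10 of 10 erythroid probes again had a positive difference (median 0.92, 2 of them with an unadjusted p under 0.05), and T cell probes had one in 1 of 13 (median -0.27, 2 of the lower ones with such a p). In 0 vs. 6 months 12 of 13 T cell probes had a positive difference (median 0.31, 1 with such a p). So had 6 of 7 B cell probes (0.23) and 4 of 5 probes of cytotoxic and NK cells (0.53). For erythroid probes the count was 1 of 10 (-0.28), and for platelet probes 0 of 8 (-0.28). In 6 months vs. ctrl 0 of 8 platelet probes had a positive difference (-0.13). Of the macrophage probes, 1 of 6 had a positive difference in each comparison with ctrl (median -0.41 and -0.27). In 0 vs. ctrl this positive probe was the only 1 of the 6 with an unadjusted p under 0.05. In 0 vs. 6 months 2 of 6 were positive (median -0.10), 1 of them with such a p. Any part of these cell types in the results below was not tested, other than as given beside them.

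None of the complement genes differed between the groups after adjustment. limma, fitted over the 38290 probes with Cy5 above background on at least 7 arrays, called 0 of the 14 probes at a Benjamini-Hochberg adjusted p under 0.05 in 0 vs. ctrl, where it called 0.0418% of all probes. It called 0 of 14 in 6 months vs. ctrl and 0 of 14 in 0 vs. 6 months, and in both of these 0% of all probes. Before adjustment, 1 of the 14 probes had p under 0.05 in 0 vs. ctrl against 11.7% of all probes. In 6 months vs. ctrl there were 0 of 14 against 7.2%, and in 0 vs. 6 months 0 of 14 against 5.96%. The median difference of the 14 probes was 0.02, 0.08 and -0.08 in these comparisons, beside -0.02, -0.04 and -0.01 over all tested probes. The 95% confidence intervals of the 14 probes, not adjusted for the number of probes, had a median half-width of 0.58 to 0.59. Changes below about 1.5-fold were thus mostly not detectable with this number of arrays even before adjustment, and larger ones could also go uncalled. An example is *C3* probe 2 in 0 vs. ctrl, with a difference of 0.71 and a limma adjusted p of 0.283. Both comparisons with ctrl used the same control arrays. The fit did not pair the 2 arrays of a dog, so its intervals in 0 vs. 6 months include the differences among dogs.

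**Figure D1:**
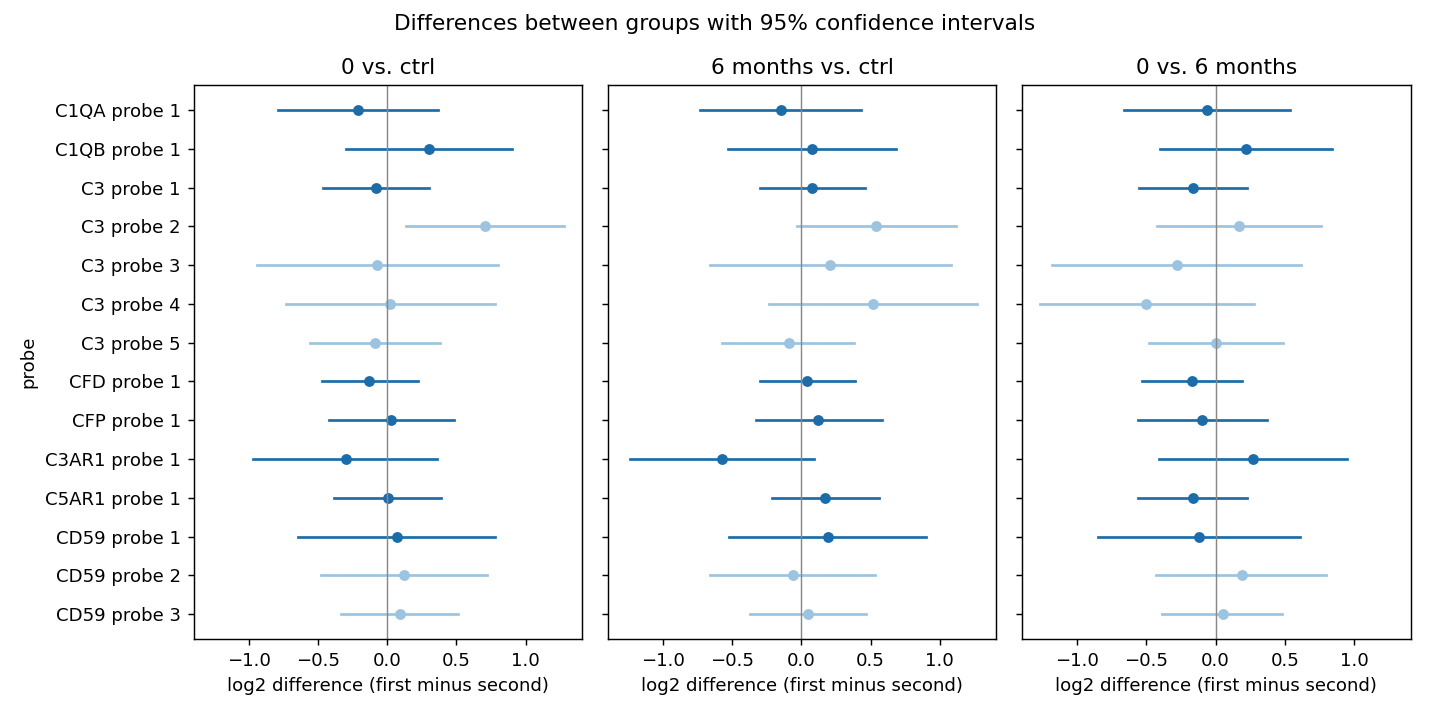
Log2 difference between groups (x axis, first group minus second) of each of the 14 probes (y axis), with bars for the 95% confidence interval of limma. Dark points are the main probe of a gene and pale points its further probes. The interval of *C3* probe 2 in 0 vs. ctrl, from 0.14 to 1.28, is the one that does not include 0.

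Among the starters, *C1QA* and *C1QB* lay on opposite sides of ctrl in the group means. *C1QA* ran from -0.66 through a median of 0.08 to 0.39 in ctrl, from -0.97 through -0.38 to 1.04 before ASIT, and from -1.39 through -0.21 to 0.77 after it. *C1QB* ran from -0.21 through 0.07 to 0.34 in ctrl, from -0.55 through 0.21 to 1.82 before ASIT, and from -0.78 through 0.02 to 1.43 after it. In both genes the cAD patients lay above and below the controls and the groups overlapped. The highest *C1QB* values, 1.82 before ASIT and 1.43 after it, were ratios to a reference spot whose Cy3 was not above background.

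In 0 vs. ctrl the difference was -0.21 (SE 0.28, limma adjusted p = 0.828) for *C1QA* and 0.30 (SE 0.29, adjusted p = 0.75) for *C1QB*. The latter was 0.05 without cAD dog 4 and 0.01 with normexp background correction and loess, a setting in which *C1QA* was at 0.02, so neither side of ctrl is settled. The order of the means was ctrl, 6 months, 0 for *C1QA*, from high to low, and 0, 6 months, ctrl for *C1QB*, and no neighbours in either order differed beyond their spread. *C1QB* scattered more in the patients, with a standard deviation (SD) of 0.19 in ctrl (n = 8), 0.75 before ASIT and 0.71 after it (n = 7 each). Over all tested probes the median SD also rose, from 0.30 in ctrl to 0.52 and 0.44.

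The 2 C1q chains had no stable relation to each other. Over the 22 arrays, with each group's mean subtracted, their log2 ratios correlated with r = -0.12. Within groups r was 0.70 in ctrl, -0.78 before ASIT and 0.38 after it, with exact permutation p of 0.0601, 0.0748 and 0.385. Spearman's rho was 0.74, -0.64 and 0.50 (exact p = 0.0458, 0.139 and 0.267). Without the 2 dogs farthest from the median of *C1QA*, r was 0.31, -0.27 and 0.88, so the relation was weaker without them in ctrl and before ASIT and stronger after it. Before ASIT, dog 4 had the lowest *C1QA* of the patients, -0.97, and the highest *C1QB*, the 1.82 over a Cy3 signal at background. After ASIT its *C1QA* was -1.39 and its *C1QB* -0.35. Neither gene followed the macrophage markers, with r = 0.08 between *C1QA* and the mean of 6 macrophage probes and r = 0.22 for *C1QB*. The mean of that list ranged from -0.61 to 0.34 in ctrl, from -1.71 to 0.31 before ASIT and from -1.23 to 0.34 after it.

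*C3*, the hub of the cascade, was near the level of the reference in every group. Its main probe (chr20:53593481-53593689) ran from -0.13 through 0.04 to 0.28 in ctrl, from -0.70 through -0.03 to 0.61 before ASIT and from -0.29 through 0.25 to 0.40 after it. The group means were 0.05 ± 0.16 (SD, n = 8), -0.03 ± 0.52 (n = 7) and 0.13 ± 0.27 (n = 7), in an order of 6 months, ctrl, 0 whose neighbours did not differ beyond their spread. In 0 vs. ctrl it differed by -0.08, in 6 months vs. ctrl by 0.08, and between the 2 time points by -0.16.

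The 5 probes of *C3* did not give 1 answer. In 0 vs. ctrl they ranged from -0.09 to 0.71, with 3 below 0 and 2 above. Probe 2 (chr20:53585879-53585938) accounts for the upper end: its mean was 0.91 ± 0.69 before ASIT (n = 7) against 0.20 ± 0.27 in ctrl (n = 8), a difference of 0.71 (SE 0.28, 95% CI 0.14 to 1.28). This was the unadjusted p under 0.05 counted above, p = 0.0167 in limma, with an adjusted p of 0.283, and a 2-sided exact permutation test gave p = 0.0183. The ratio rests on dim spots, since Cy5 was above background on 2 of the 7 arrays before ASIT and Cy3 on 1, whereas all 8 control arrays measured both. When the Cy5 channel was used without the reference, the same probe turned to a difference of -1.37 (adjusted p = 0.02) in 0 vs. ctrl and to -1.13 (adjusted p = 0.0489) in 6 months vs. ctrl, so its direction is not settled. In that setting 21.1% and 15.5% of all probes were called. The probe passed the filter on low Cy5 signals only through ctrl, where its median Cy5 was highest, so the test on Cy5 alone is not independent of that filter. Probes 1 and 2 correlated with r = 0.12 over the 22 arrays after subtraction of group means, and probes 3 and 4 with r = 0.74.

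Dog by dog, *C3* moved with myeloid marker genes, and among the 10 lists tried its r was highest with that of neutrophils. Its main probe had r = 0.78 with the mean of 13 neutrophil probes over the 22 arrays after subtraction of group means, and 13 of the 13 probes were on the positive side. The monocyte list had r = 0.46 (13 of 14 probes positive), the hepatocyte list 0.41 (11 of 14) and the macrophage list 0.38 (6 of 6). The mean of the neutrophil list ranged from -0.41 to 0.50 in ctrl, from -0.42 to 1.01 before ASIT and from -0.09 to 0.93 after it, so the groups overlapped there too. These 22 points come from 15 dogs and share slides, and the correlation is a description.

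The activators *CFD* and *CFP* were measured well above background on every array, and neither differed between the groups. *CFD*, the protease that cuts factor B, ran from -0.20 through 0.04 to 0.62 in ctrl, from -0.44 through -0.04 to 0.59 before ASIT and from 0.00 through 0.08 to 0.49 after it. *CFP*, which encodes properdin, ran from -0.42 through -0.04 to 0.85 in ctrl, from -0.79 through 0.20 to 0.55 before ASIT and from -0.16 through 0.09 to 0.67 after it. For both genes the mean after ASIT was the highest of the 3, at 0.18 ± 0.20 for *CFD* and 0.16 ± 0.31 for *CFP* (SD, n = 7), and the neighbours in the order did not differ beyond their spread.

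The largest of the differences was -0.17 (SE 0.17, 95% CI -0.53 to 0.19) for *CFD* in 0 vs. 6 months. Within dogs, 3 of 7 had a higher *CFD* before ASIT and 4 of 7 a lower one, with p = 0.328 in a 2-sided exact sign-flip permutation test. For *CFP* the counts were also 3 and 4, with p = 0.688 in the same exact test. The smallest p this test allows with 7 dogs is 0.0156.

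*CFD* and *CFP* followed each other closely from dog to dog. In ctrl, dogs 5 and 7 had the highest values of both genes, 0.62 and 0.45 for *CFD* and 0.85 and 0.41 for *CFP*. Before ASIT, dogs 7 and 4 had the lowest of both, -0.44 and -0.40 for *CFD* and -0.79 and -0.48 for *CFP*. After 6 months, dogs 3 and 4 had the highest of both. Dog 4 thus moved from the low to the high end in both genes.

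Over the 22 arrays, after subtraction of group means, the correlation of *CFD* with *CFP* was r = 0.86, and 0.0162% of the 12349 named probes measured on every array were closer to *CFD*. Within groups Pearson's r was 0.83 in ctrl (n = 8, exact permutation p = 0.00784), 0.86 before ASIT (n = 7, exact p = 0.0206) and 0.98 after it (n = 7, exact p = 0.00377). Spearman's rho was 0.67, 0.82 and 0.75, with exact permutation p of 0.0831, 0.0341 and 0.0663. Without the 2 dogs farthest from the median of *CFD*, r was 0.24 in ctrl, 0.93 before ASIT and 0.73 after it, so the relation in ctrl rests on those 2 dogs. In all, 84 such relations were computed, 28 pairs of main probes in 3 groups, and 10 of them had an exact p under 0.05 without adjustment. *CFP* also tracked *C3*, with r = 0.71 in ctrl, 0.88 before ASIT and 0.62 after it (exact permutation p = 0.0423, 0.0139 and 0.115). Both activators moved with the monocyte markers: r was 0.61 for *CFD* and 0.62 for *CFP* with the mean of 14 monocyte probes, and 13 of these 14 were positive for each gene. The mean of the monocyte list ranged from -0.34 to 0.29 in ctrl, from -0.59 to 0.31 before ASIT and from -0.44 to 0.63 after it. With the mean of 6 macrophage probes r was 0.58 and 0.72.

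**Figure D2:**
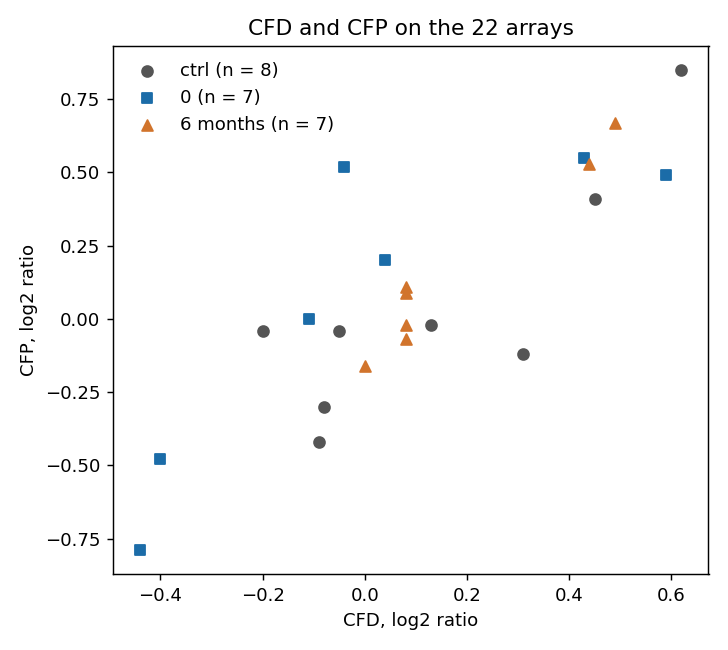
Log2 ratio of *CFP* (y axis) against that of *CFD* (x axis), 1 point per array, with circles for ctrl, squares for cAD patients before ASIT and triangles for the same dogs after 6 months. The points run from the lower left, where dogs 7 and 4 before ASIT lie, to the upper right, and all 3 groups overlap.

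Of the receptors, *C5AR1* was measured on every array and *C3AR1* was dim in the patients. *C5AR1*, the receptor through which C5a draws neutrophils (chr1:108659726-108659785), ran from -0.71 through -0.05 to 0.60 in ctrl, from -0.35 through -0.10 to 0.63 before ASIT and from -0.06 through 0.05 to 0.48 after it. Its means were -0.02 ± 0.44, -0.01 ± 0.34 and 0.15 ± 0.21 (SD, n = 8, 7 and 7). The control dogs spread the widest here, unlike in the main probe of any other gene. In 0 vs. ctrl the difference was 0.01 (95% CI -0.38 to 0.39), and in 0 vs. 6 months it was -0.16, lower before ASIT in 5 of 7 dogs (exact sign-flip permutation p = 0.219).

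*C3AR1*, the receptor of C3a, had the largest difference of the main probes, in 6 months vs. ctrl, yet on weak signals. It ran from -0.27 through 0.09 to 0.35 in ctrl, from -1.15 through -0.38 to 0.52 before ASIT and from -1.76 through -0.49 to 0.94 after it. The means fell in the order ctrl, 0, 6 months, at 0.06 ± 0.19, -0.25 ± 0.60 and -0.52 ± 0.98, and no neighbours differed beyond their spread. The difference was -0.57 (SE 0.32, 95% CI -1.24 to 0.09, adjusted p = 0.681) in 6 months vs. ctrl. It was 0 with normexp and loess and -1.01 in the Cy5 channel alone (limma adjusted p = 0.113), and from -0.82 (without cAD dog 2) to -0.37 (without cAD dog 7) when single dogs were left out. Of the 7 dogs, 6 had a higher value before ASIT than after it, by 0.27 on average over all 7 (exact sign-flip permutation p = 0.172). Cy5 was above background on 2 of 7 arrays after ASIT, so most of the low values are those of spots near background. The probe passed the filter on low signals only through ctrl, the group where its mean was highest. The size of the difference is thus that of mostly unmeasured spots.

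*CD59*, the protector of host cells, had a wide spread among dogs and similar group means. Its main probe ran from -0.85 through -0.23 to 0.55 in ctrl, from -1.33 through -0.13 to 0.88 before ASIT and from -1.50 through 0.33 to 1.07 after it. The means were -0.17 ± 0.47, -0.09 ± 0.76 and 0.03 ± 0.87 (SD, n = 8, 7 and 7), in an order of 6 months, 0, ctrl from high to low whose neighbours did not differ beyond their spread. The differences of the 3 probes lay between -0.12 and 0.19 in the 3 comparisons, and probes 1 and 2 had opposite signs in both comparisons that involve the samples after ASIT. Within dogs, the 2-sided exact sign-flip permutation test of 0 vs. 6 months gave p = 0.297 for probe 1 and p = 0.156 for probe 2.

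**Figure D3:**
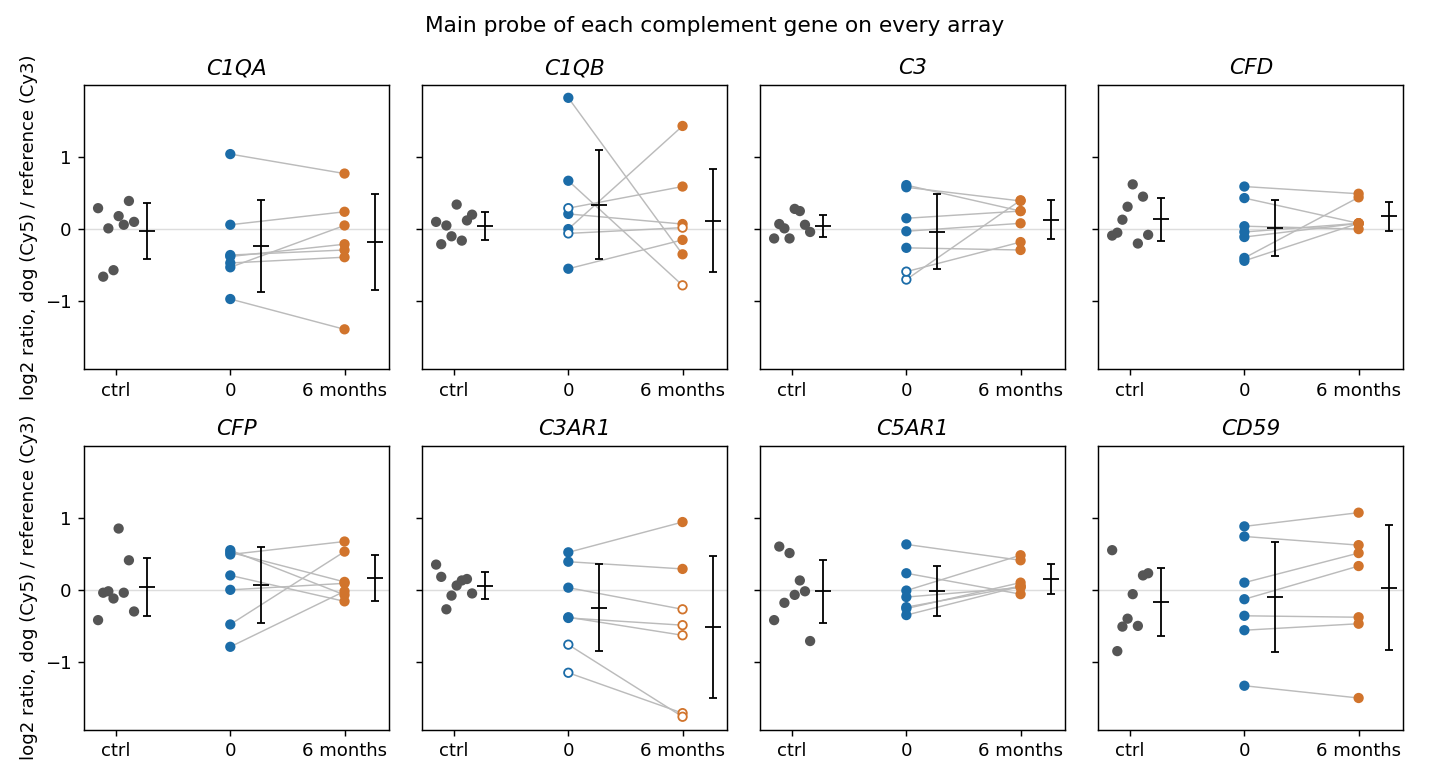
Log2 ratio of dog to reference (y axis) on every array for the main probe of each gene, in ctrl (n = 8), before ASIT (0, n = 7) and after it (6 months, n = 7). Filled points had Cy5 well above background and open points did not, grey lines join the arrays of 1 dog, and bars show the mean and SD. The groups overlap in every gene, and the lines run nearly parallel in *CD59* and cross in *C1QB*.

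The *CD59* level of a dog was similar before and after the 6 months of ASIT. Before ASIT the values of dogs 1 to 7 were -0.13, 0.88, 0.74, 0.10, -1.33, -0.56 and -0.36. After it they were 0.33, 1.07, 0.62, 0.51, -1.50, -0.47 and -0.38. The order of the 7 dogs was the same both times, with dog 2 highest and dog 5 lowest, and these 2 dogs were 4.62-fold apart before ASIT and 5.91-fold apart after it. No dog changed by more than 0.47, and the SD of the change within dogs was 0.25, beside an SD among dogs of 0.76 and 0.87.

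Pearson's r between the 2 time points was 0.96 for probe 1 of *CD59* (n = 7 dogs, 2-sided exact permutation p = 0.000198, and no smaller p is possible with 7 dogs) and Spearman's rho was 1.00 (exact p = 0.000397). Without the 2 dogs farthest from the median, 2 and 5, r was 0.86. Probe 2 (chr18:33998222-33998281), also measured on every array, gave r = 0.91 (exact p = 0.00437) with rho = 0.79 (exact p = 0.048), and r was 0.91 without the same 2 dogs. Probe 3 gave r = -0.05, but it was above background on 3 of the 14 patient arrays and its ratio was exactly 0 on 7. Adjusted over all tested probes the p of probe 1 was 0.269, and 0 probes of the array passed, so this relation fails the correction. Probes 1 and 2 of *CD59* also tracked each other, with r = 0.89 before ASIT and 0.92 after it, and 0.30 in ctrl.

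Dogs 1 and 2 had both arrays on slide 3 and dog 3 on slide 4, while dogs 4 to 7 had theirs on different slides scanned on different days. Dogs 5 to 7 shared a slide before ASIT and again after it, and they had the 3 lowest *CD59* values both times. For them the dog and the slide cannot be told apart. With 3 and 4 dogs, the subsets with both arrays on 1 slide and on different slides were too small for a correlation of their own. Dogs 4 to 7 kept their order in *CD59* with changes between 0.02 and 0.41. Several marker lists moved in part with *CD59*. Of the erythroid markers, 9 of 10 erythroid probes correlated positively with it over the 22 arrays after subtraction of group means, and the mean of the list had r = 0.46. The neutrophil list had r = 0.44 (11 of 13 probes positive), a hepatocyte list 0.50 (10 of 14) and the B cell list -0.48 (1 of 7). The mean of the erythroid list ranged from -1.14 to 1.33 in ctrl, from -1.20 to 1.45 before ASIT and from -0.84 to 1.48 after it, and between the 2 time points its r over the 7 dogs was 0.51. For the other 3 lists this r was 0.25, 0.45 and 0.70.

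Of the 14 probes, 4 had a positive correlation between the time points with an exact permutation p under 0.05, against 11.8% of the 38238 probes that could be computed. Among probes with both channels above background on every array these were 2 of 5, both of *CD59*, against 14.1% of 19949. The other 2 were *C3AR1* and *C1QA*, and with normexp and loess both fell short of it, at r = 0.57 (exact permutation p = 0.155) and 0.54 (exact p = 0.202), which left 2 of 14. The median r was 0.20 over the 14 probes and 0.36 over all.

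*C3AR1* had r = 0.96 (exact p = 0.00238), rho = 0.93 (exact p = 0.00675) and r = 0.94 without the 2 most distant dogs. Dogs 1 and 2 were highest and dogs 4 and 7 lowest both times, and of the 14 arrays 6 had Cy5 above background. Dogs 1 and 2 were also the only ones above background at both times, and all their arrays lay on slide 3. The relation thus rests mostly on unmeasured spots, and dog and slide cannot be told apart for its highest values. *C1QA* had r = 0.87 (exact p = 0.0194) and rho = 0.75 (exact p = 0.0663), with dog 5 highest and dog 4 lowest both times. Without these 2 dogs r was 0.64, so the relation rests on them in good part. The adjusted p was 0.275 for *C3AR1* and 0.341 for *C1QA*.

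The other genes had no correlation between the time points with p under 0.05. *C1QB* had r = -0.36 (exact p = 0.395), and its largest change in a dog was 2.17, in dog 4, whose reference spot was not above background before ASIT. *C5AR1* had r = 0.47 (exact p = 0.286), the main probe of *C3* 0.40 (exact p = 0.349), *CFD* 0.19 (exact p = 0.691) and *CFP* 0.00 (exact p = 0.999). The 2 genes that followed each other most closely from dog to dog, *CFD* and *CFP*, were thus among those whose level in a dog at 1 time told least about the other time. The difference between these correlations and that of *CD59* was not tested.

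**Figure D4:**
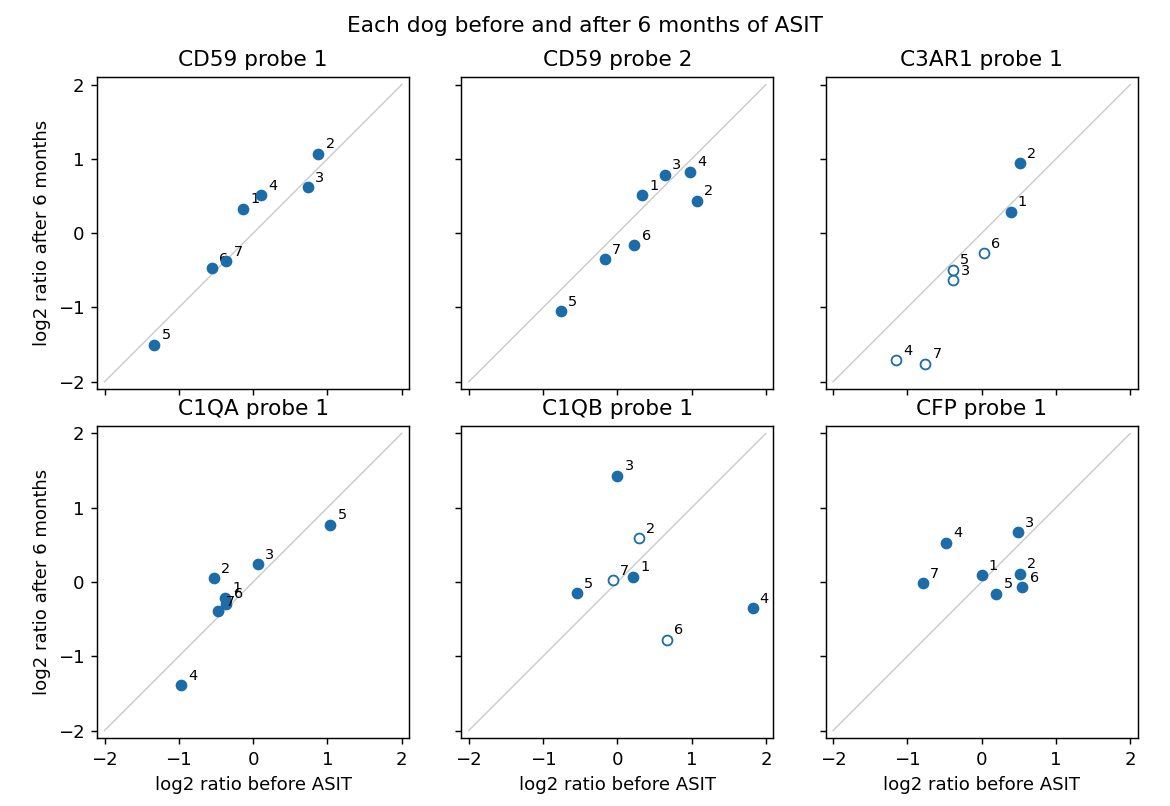
Log2 ratio after 6 months of ASIT (y axis) against that before ASIT (x axis) for 6 probes, 1 numbered point per dog (n = 7), with a grey line where both are equal. Filled points had Cy5 well above background at both times and open points did not. The points of *CD59* probes 1 and 2 lie along the line, while those of *C1QB* and *CFP* do not.

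Genes whose pattern was most like each of these were sought among the 12349 named probes with both channels above background on every array, by Pearson's r over the 22 arrays after subtraction of group means, and the values are descriptions over 15 dogs. For *C3* they were *ELMOD3* (r = 0.90), *MPP1* (0.87) and *ITFG3* (0.87), and for *C5AR1* *XPO6* (0.90), *DENND5A* (0.86) and *TBC1D23* (0.83). For *CFD* they were *AGPAT2* (0.89), *MAN2B1* (0.87) and *CFP* itself (0.86), and for *CFP* *IER3* (0.89), *GPR108* (0.88) and *SH3BP2* (0.88). *C3AR1* was closest to *RCAN2* (0.85), *SSBP2* (0.85) and *CHD6* (0.83), and *CD59* to *GNB1* (0.81), *PER1* (0.77) and *CCDC85B* (0.77). The C1q chains had the weakest partners, with *EEF2* (0.73), *ACOT7* (0.69) and *TNNC2* (0.68) for *C1QA* and *METTL1* (0.68), *AQP8* (0.65) and *RHOV* (0.65) for *C1QB*.

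The rest of the pathway gave a similar picture. Of 46 further complement genes, 24 had a probe and 21 a tested one, and 0 of their 38 tested probes were called in any comparison. Before adjustment, 0 probes were higher and 4 of 38 lower with p under 0.05 in 0 vs. ctrl, where 11.7% of all tested probes had such a p. These counts were 0 and 1 in 6 months vs. ctrl, and for 0 vs. 6 months 1 and 1, beside 7.2% and 5.96% of all tested probes. The median difference of the 38 probes was -0.08, -0.01 and -0.19 in this order.

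The smallest p values in 0 vs. ctrl belonged to *C1R* and *C1S*, the proteases that C1q carries, and to *MASP1*, a protease of the lectin pathway. *C1R* averaged -1.42 ± 1.26 before ASIT (SD, n = 7) against -0.09 ± 0.18 in ctrl (n = 8), a difference of -1.33 (SE 0.41, limma adjusted p = 0.191). *C1S* had a difference of -0.79 (SE 0.28, adjusted p = 0.243). These values came from dim spots, with Cy5 above background on 3 of 7 arrays before ASIT for *C1R* and on 1 of 7 for *C1S*, against 8 of 8 in ctrl. Both probes passed the filter on low signals only through ctrl, the group where they were higher, so their sizes are those of mostly unmeasured spots. The *MASP1* probe with the small p, 1 of its 2, was not well above background on any of the 7 arrays before ASIT, so no fold change is given there.

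In 6 months vs. ctrl the 3 smallest p values were those of *MASP1* (-0.54, adjusted p = 0.602, 1 of 7 arrays above background after ASIT), *C1QBP*, a protein that binds C1q (-0.26 in 1 of its 3 probes, adjusted p = 0.681), and *CD93*, a membrane protein of myeloid cells and endothelium (0.76, adjusted p = 0.69). A probe of *C1QC*, the remaining C1q chain, had the same p as *CD93* to 3 digits, with a difference of 0.58 (adjusted p = 0.69), and its other 2 probes had 0.35 and 0.27. *C1QBP*, *CD93* and this *C1QC* probe were above background on all 7 arrays after ASIT. The *MASP1* probe passed the filter only through ctrl, where it was higher, so its difference is that of mostly unmeasured spots. In 0 vs. 6 months the 3 smallest p values were those of *C8G* (0.60, adjusted p = 0.746) and *C8B* (-0.96, adjusted p = 0.789), chains of the terminal component C8, and of *C1S* (-0.61, adjusted p = 0.839). All 3 had Cy5 above background on 8 of 8 ctrl arrays, through which they passed the filter. Before ASIT each was above background on 1 of 7 arrays, and after it *C8G* was on 3 of 7 and *C8B* and *C1S* on 2 of 7, so these differences compare spots mostly at background.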

How the data were processed

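The authors deposited the Agilent scanner output of 22 two-colour arrays. The deposited intensity columns hold signals that Feature Extraction (10.10.1.1 per the file headers, 10.7.3.1 per the submitters' processing notes) had background-subtracted and Lowess-normalized, and the authors' software wrote their log10 ratio of Cy5 to Cy3 for each spot. It is 0 on part of the spots at background. A deposited series matrix of log10 ratios equalled the scanner files for the 14 patient arrays and correlated with them by 0.711 to 0.844 for the 8 control arrays.

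Ratios were converted to log2, 208 spots flagged as outliers on any of the arrays were dropped, and the 43803 spots were averaged to 43603 probes. The 38290 probes whose Cy5 passed the well-above-background flag on 7 or more arrays were fitted as 3 groups with limma 3.58.1 in R 4.3.3, and p-values were adjusted over all of them. Each gene was read from its main probe, that with the highest mean log2 processed Cy5 intensity. Exact 2-sided permutation tests served for single values. The further complement genes named are those with the 3 smallest p in a comparison. Fits were tested on simulated data. Depth is unknown for arrays: their number limits the precision. Replicates are different dogs.

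The arrays before and after ASIT were paired by the dog number in the labels' source names, since the titles of all arrays after ASIT name patient 1 beside a running number. Deviations from the group means correlated with r = -0.04 to 0.56 within the 7 dogs, 4 of which matched their own other array best, and the dog entered as a block only in an alternative, as the study's methods do not mention pairing. Alternatives were other background corrections, sources, filters and blocks, the one-way test of the methods (Tukey's test after it) and leaving out each dog. Those of the correlations were added after the data had been seen. The genes and lists were chosen with earlier results of these data known. Figures were drawn with matplotlib 3.10.9 in Python 3.11.15.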

Additional observations from a re-analysis of the deposited data

Results flagged for a closer look

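Of 42 groups of values (14 probes in 3 groups), 1 had a sample far from the others, where chance gives about 1 in 20. Probe 5 of *C3* after ASIT had a log2 ratio of -0.41 in dog 1, while the other 6 dogs lay between 0 and 0.17. Cy5 was above background there on 1 of the 7 arrays, and the ratio was exactly 0 on 5.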

How the results depend on the processing

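The count of called probes among the 14 was 0 in all 3 comparisons under every alternative run but 1: the Cy5 channel alone called 1 in 0 vs. ctrl and 1 in 6 months vs. ctrl, both probe 2 of *C3*, with 3 probes under an unadjusted 0.05 in each. The single probe under an unadjusted 0.05 in 0 vs. ctrl was lost, to 0, with normexp and loess, the strict filter (5 of 14 probes tested), the methods' one-way test, and the slide or the scan day as a random block. With normexp and loess 1 probe, the third of *CD59*, had it in 6 months vs. ctrl. Leaving out each dog gave 0 to 1 in 0 vs. ctrl (0 without cAD dog 6) and 0 to 1 in 6 months vs. ctrl (1, *C3* probe 2 or *C3AR1*, without ctrl dog 1 or cAD dogs 1, 2, 4 or 7), and 0 called throughout. With the dog as a block, the paired fit of 0 vs. 6 months called 0 and had 0 under an unadjusted 0.05, and it changed no other call.

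The sign of small differences, none of them called, was not stable. With normexp and loess it turned for *C5AR1* (-0.03) and *C1QA* (0.02, where the main value was -0.21) in 0 vs. ctrl, and for *C3AR1* (-0.07), *C1QA* (0.02) and *C1QB* (-0.02) in 0 vs. 6 months. With the Cy5 channel alone it turned in 0 vs. ctrl for *C3* (0.02), *C5AR1* (-0.13) and *CFD* (0.13), in 6 months vs. ctrl for *C5AR1* (-0.32) and *CFD* (-0.03), and in 0 vs. 6 months for *C5AR1* (0.19), *CFD* (0.16) and *CD59* (0.03). In 0 vs. 6 months it also turned with the scan day as a random block for *C1QB* (-0.03), with the slide as a fixed block for *C5AR1* (0.06), *C3AR1* (-0.15) and *C1QB* (-0.25), and in dogs 1 to 3 alone for *C3* (0.15), *C5AR1* (0.05), *C3AR1* (-0.02), *CFP* (0.05) and *C1QB* (-0.53). Without each dog in turn, 0 vs. ctrl ranged from -0.19 to 0.03 for *C3*, -0.10 to 0.10 for *C5AR1*, -0.05 to 0.17 for *CFP*, -0.09 to 0.28 for *CD59*, 0.05 to 0.45 for *C1QB* and -0.42 to -0.08 for *C1QA*. 6 months vs. ctrl ranged from -0.31 to 0.06 for *C1QA*, -0.14 to 0.23 for *C1QB*, -0.01 to 0.11 for *CFD* and 0.02 to 0.45 for *CD59*, and 0 vs. 6 months from -0.14 to 0.03 for *C1QA*, -0.10 to 0.50 for *C1QB* and -0.21 to 0.06 for *CFP*. With the slide as a fixed block *C1QA* was at -0.51 in 0 vs. 6 months, where it was -0.06 without. Other differences, none of them called, also moved by over 1.5 times without a change of sign. The cause was not tested.

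Within slide 3 (2 dogs at each time) the 8 main probes differed by -0.38 to 0.26 in 0 vs. 6 months, and within slide 4 (2 and 1 arrays) by -0.69 to -0.13. The correlation between the time points stayed past an exact permutation p of 0.05 for *CD59* probe 1 in every setting tried, at r = 0.86 to 0.98, and for probe 2 except without dog 5 (r = 0.80, exact p = 0.0611). *C3AR1* fell to r = 0.57 (exact p = 0.155) with normexp and loess, which left 2 such probes of the 14. *C1QA* fell to 0.54 (exact p = 0.202) there and to 0.60 (exact p = 0.131) in the Cy5 channel alone. Without dog 3 its r was 0.87 (exact p = 0.0583). The correlation of *CFD* with *CFP* ranged from 0.82 to 0.91. Signals near background in the patients limit *C3AR1*, *C1QB*, probes 2 to 5 of *C3* and probe 3 of *CD59*.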

Other observations

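A probe outside the rule above, whose description in the files names *CD55*, a membrane protein that breaks up the enzymes cutting *C3*, was above background on all 22 arrays (chr7:6370085-6370144). It was chosen after its values were seen. Its mean log2 ratio was 0.34 ± 0.67 in ctrl (SD, n = 8), 0.45 ± 0.74 before ASIT and 0.22 ± 0.42 after it (n = 7 each), with differences of 0.10, -0.12 and 0.22 in 0 vs. ctrl, 6 months vs. ctrl and 0 vs. 6 months, and limma adjusted p values of 0.929, 0.945 and 0.935. Its values before and after ASIT had r = -0.11 over the 7 dogs (exact permutation p = 0.83).

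Several marker lists lay opposite to the receptor *C5AR1*. All 13 T cell probes and all 7 B cell probes correlated negatively with it over the 22 arrays after subtraction of group means, with r = -0.50 and -0.56 for the means of these lists. So did all 10 erythroid probes (r = -0.24), and 4 of 5 probes of cytotoxic and NK cells (r = -0.36 for the mean of the list). The neutrophil list had r = 0.42, with 11 of 13 probes positive. These values are descriptions over 15 dogs whose arrays share slides.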
